A study of Mus musculus with 2 samples.

Results

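Clock output factors are transcription factors that the circadian clock switches on and off each day and that pass its rhythm on to other genes. The 7 members described here were chosen by name: the PAR bZIP activators Dbp, Tef and Hlf, the bZIP repressor Nfil3, the clock repressor Ciart, and the bHLH repressors Bhlhe40 and Bhlhe41. They were picked with the ratios between these same arrays already known, so their values are a description and carry no test. Every probe set annotated to a single one of these symbols was taken, which gave 12 of 45037 probe sets for 7 of 18193 named genes.

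The data were 2 Affymetrix expression arrays of mouse cerebral cortex, 1 hybridised with RNA of mice titled as Gnmt knockouts (KO) and 1 with RNA of wild-type (WT) mice. Each array received total RNA mixed from 3 males of strain 129/B6 aged 4 weeks. Gnmt encodes glycine N-methyltransferase, which transfers a methyl group from S-adenosylmethionine to glycine. The sources used here give neither how the allele was made nor the time of day at which the cortices were taken. Each genotype has 1 array without replicates. Differences could not be tested, and a ratio says what separates these pools, not genotypes.

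The molecular clock is a feedback loop in which CLOCK and BMAL1 (encoded by Arntl) bind E-box sequences and switch on their own repressors, the Per and Cry genes. E-boxes of the same kind drive Dbp, Tef, Hlf and Ciart, so in mouse tissues these transcripts accumulate in a common part of the day. DBP, TEF and HLF then activate genes with D-box sequences, whereas NFIL3 (also called E4BP4) represses through the same D-boxes and accumulates at the opposite phase, under control of the Rev-Erb and ROR nuclear receptors. In mice lacking DBP, TEF and HLF together, brain pyridoxal phosphate is low and seizures are frequent. BHLHE40 and BHLHE41, also called DEC1 and DEC2, bind E-boxes and repress CLOCK and BMAL1 activity.

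The promoter sequences are shown because clock factors are known to act on motifs of this kind. The part of these motifs in the ratios was not tested. RefSeq windows of assembly GRCm38.p6 were at hand for Dbp, Tef, Hlf, Nfil3, Ciart and Bhlhe41, 7 windows in all, and the 250 bases before each start site were searched on both strands. The motifs were the E-box CACGTG, the E-prime box CACGTT, the D-box TTATGTAA or TTACGTAA, the Rev-Erb/ROR element TAGGTCA or TGGGTCA, and the cyclic AMP response element TGACGTCA, none of which overlapped another in these windows. The E-box stood in 4 of the 7 windows, those of Ciart, Bhlhe41 and both Tef start sites, and so in 3 of 6 genes. It stood in 6.02% of all 32851 windows. The members were chosen by name as clock outputs, so no enrichment is read from these shares. Ciart held 3 E-boxes within 250 bases, and 3 or more were held by 20 of the 32851 windows (0.0609%). Its E-boxes, in capitals, began 116, 58 and 44 bases before the start site of the window. That site lies inside the annotated gene, and the printed letters stop where the gene begins. They are the 221 bases upstream of the gene (chr3:95882258-95882478, minus strand):
Ciart: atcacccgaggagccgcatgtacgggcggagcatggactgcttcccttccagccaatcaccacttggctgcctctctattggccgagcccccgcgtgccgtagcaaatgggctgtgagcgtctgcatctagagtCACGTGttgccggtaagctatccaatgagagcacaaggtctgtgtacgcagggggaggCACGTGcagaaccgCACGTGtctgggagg

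The other members with a motif are set out as short stretches with the motif in capitals, each read 5′ to 3′ on the strand of the gene. The Tef stretches lie at chr15:81802534-81802563 and chr15:81811264-81811293 on the plus strand, the second of them inside the annotated gene. The Bhlhe41 stretch lies at chr6:145865556-145865585, the Hlf stretch at chr11:90390918-90390938 and the Nfil3 stretch at chr13:52981040-52981063, all on the minus strand. Tef and Bhlhe41 show an E-box, Hlf a cyclic AMP response element and Nfil3 the complement of a Rev-Erb/ROR element, inside the annotated gene:
Tef upstream start: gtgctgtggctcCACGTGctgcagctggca
Tef inner start: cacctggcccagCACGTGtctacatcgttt
Bhlhe41: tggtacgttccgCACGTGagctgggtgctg
Hlf: cggtgcgggcccTGACGTCAc
Nfil3: ggcgctcggaacTGACCTActaac

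A cyclic AMP response element was held by 1.55% of all windows and a Rev-Erb/ROR element by 5.38%. The E-prime box (3.85% of windows) and the D-box (0.931%) were found in none of the 7 windows. The Dbp window held none of the motifs searched, but part of this window lies inside the annotated gene. A match describes letters and not binding, and motifs further away or inside introns lay outside these windows.

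Some values of the arrays as a whole stood against their labels. The genotype entry of the KO-titled sample reads wild-type, so the pools were named by title. Gnmt itself, on 1 probe set, read 21.5 units in the KO-titled pool and 10.0 units in the WT pool, both below the floor of 64.2 units used here in place of detection calls, and so could not check the titles. Xist, an RNA of female cells, gave 2560 units in the KO-titled pool and 49.6 units in the WT pool, although both pools are labelled male. Genes of the Y chromosome were measured in both pools, with Eif2s3y, Kdm5d and Uty at 989, 198.9 and 161.4 units in the KO-titled pool and 879.8, 355.4 and 186.7 units in the WT pool. Growth hormone (Gh) gave 200 units in the KO-titled pool and 23223 units in the WT pool, although both are labelled cortex. Of 3 measured anterior pituitary markers, Gh and Pomc were lower in the KO-titled pool by 1.5-fold or more. The summed signal of the 7 such markers on the array was 726 units in the KO-titled pool and 31370 units in the WT pool. All 8 neuronal markers were measured in both pools, with summed signals of 88841 units in the KO-titled pool and 96602 units in the WT pool. The control probe sets for RNA integrity gave a 3′ to 5′ signal ratio for Actb of 3.76 in the KO-titled pool and 3.71 in the WT pool.

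Of the 7 members, 6 reached the floor on both arrays with at least 1 probe set, and 10 of the 12 probe sets did. By the brightest measured probe set of each gene, Hlf, Dbp, Ciart and Tef were at least 1.5-fold higher in the KO-titled pool, Nfil3 was at least 1.5-fold lower, and Bhlhe40 lay near 0. Over all 12251 measured genes, 12.5% were higher and 18.3% lower in the KO-titled pool by 1.5-fold or more. The members were chosen on this contrast, so nothing is read from 4 higher and 1 lower of 6 against those shares. The median log2 ratio of KO-titled over WT signal was 1.05 over the 6 members, with -0.06 over all measured genes. The 6 are not all members, since a gene had to reach the floor in both pools to have a ratio.

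**Figure D1:**
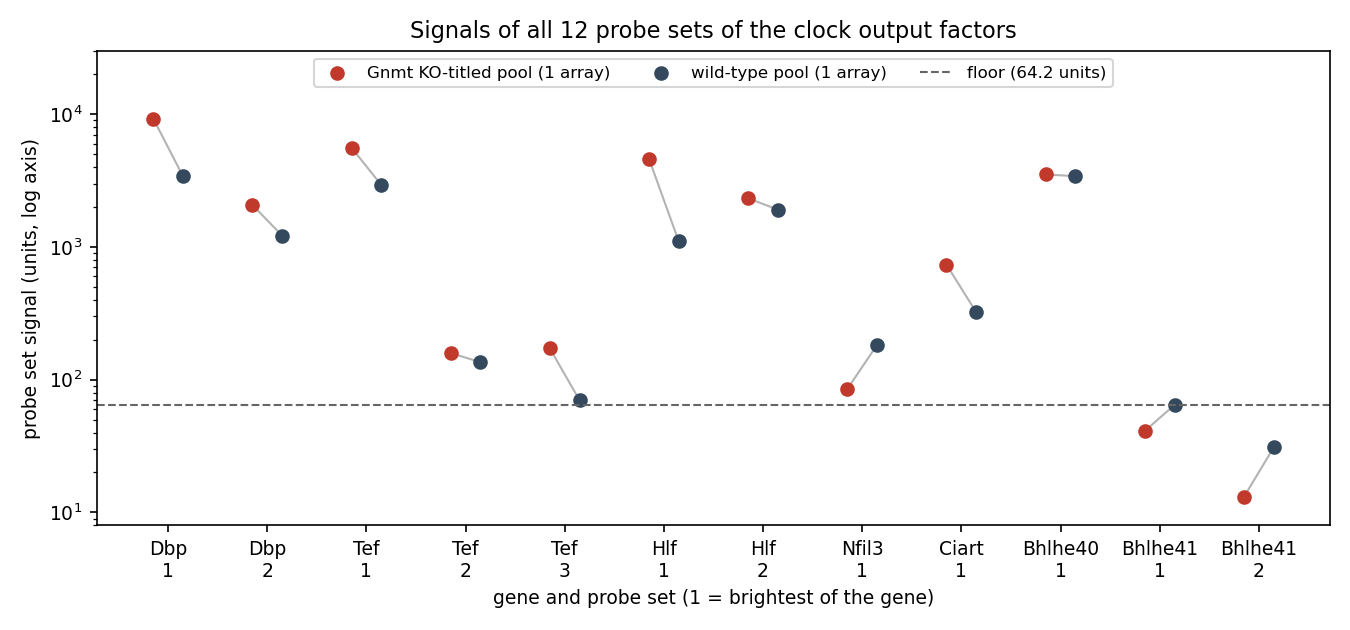
Signal of each of the 12 member probe sets (units, log axis) in the KO-titled pool (red, left of each pair) and the WT pool (dark, right), 1 array each, with the floor of 64.2 units dashed. The red point is above the dark one for every probe set of Dbp, Tef, Hlf, Ciart and Bhlhe40, and below it for Nfil3 and Bhlhe41.

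The PAR bZIP activators, named for a proline- and acidic-rich region beside the bZIP domain, were higher in the KO-titled pool by every probe set. Dbp, the albumin D-site binding protein, had 9265 units in the KO-titled pool and 3406 units in the WT pool by its brightest probe set. That is a 2.70-fold higher signal in the KO-titled pool, a log2 ratio of 1.43, and 144 of 12251 genes had a higher ratio. A second Dbp probe set gave 2072 units in the KO-titled pool and 1215 units in the WT pool, 1.69-fold higher with a log2 ratio of 0.76. Both Dbp probe sets therefore passed 1.5-fold in the same direction. The brighter one carries a suffix that marks probes shared between transcripts, and in the RefSeq annotation Dbp overlaps Sphk2, a sphingosine kinase gene. Sphk2 had 270.3 units in the KO-titled pool and 350.4 units in the WT pool, a log2 ratio of -0.39. Whether Sphk2 RNA adds to the suffixed Dbp probe set was not tested.

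Hlf, the hepatic leukemia factor, had the highest ratio of the members and the widest gap between its probe sets. Its brightest probe set gave 4599 units in the KO-titled pool and 1101 units in the WT pool, 4.14-fold higher with a log2 ratio of 2.05. Only 31 of 12251 genes (0.253%) had a higher ratio. The other Hlf probe set, annotated to the same expressed sequence tag, gave 2323 units in the KO-titled pool and 1907 units in the WT pool, a log2 ratio of 0.27. The gap of 1.78 between them on the log2 scale was matched or exceeded by 4.60% of the 5375 genes with at least 2 measured probe sets. The 4.14-fold value for Hlf thus rests on 1 of its 2 probe sets.

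Tef, the thyrotroph embryonic factor, had 5587 units in the KO-titled pool and 2925 units in the WT pool by its brightest probe set, 1.89-fold higher with a log2 ratio of 0.92. Its 2 dimmer probe sets gave 158.6 and 171.8 units in the KO-titled pool, against 135.5 and 69.9 units in the WT pool. Their log2 ratios were 0.22 and 1.29, the second with a WT signal barely above the floor. The bright probe set, which lies far above the floor in both pools, falls between the 2 dim ones in ratio.

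All 7 measured probe sets of Dbp, Tef and Hlf had a log2 ratio above 0, and 5 of them were at least 1.5-fold higher in the KO-titled pool, with a median of 0.92. Over all 20967 measured probe sets with 1 gene, 48.1% had a ratio above 0 and 16.5% were at least 1.5-fold higher, with a median of -0.03. Of the 5375 genes with at least 2 measured probe sets, 26.9% had all of them above 0. The members were chosen on this contrast, so nothing is read from these counts. Probe sets of 1 gene read the same RNA and are no replicates of the genotype. Disagreement between probe sets gave a scale for these ratios, an error SD of 0.58 on the log2 scale (1.49-fold), computed over the 5375 genes with at least 2 measured probe sets. By brightest probe sets Hlf exceeded Dbp by 0.62 and Dbp exceeded Tef by 0.51, which is 0.76 and 0.62 times the SD that this error gives to a difference between 2 probe sets. No order among the activators is therefore read from these values, and the error does not include differences between animals.

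**Figure D2:**
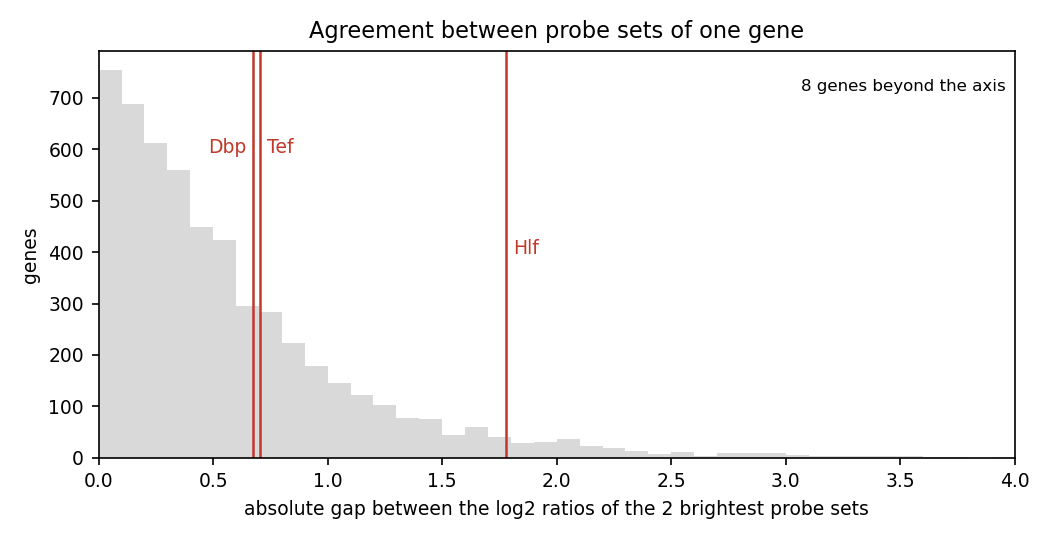
Histogram of the absolute gap between the log2 ratios of the 2 brightest measured probe sets, for 5375 genes (y axis, number of genes), with red lines at Dbp (0.67), Tef (0.71) and Hlf (1.78). The median gap was 0.42, and 30.8% of genes had a gap as large as that of Dbp, 29.2% as large as that of Tef and 4.60% as large as that of Hlf.

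Nfil3, which competes with the activators for D-boxes and represses from them, was lower in the KO-titled pool. Its single probe set gave 85.1 units in the KO-titled pool and 182.7 units in the WT pool, a log2 ratio of -1.11 or 2.16-fold lower. A lower ratio was found for 622 of 12251 genes (5.08%). The signals were only 1.33 times the floor in the KO-titled pool and 2.85 times the floor in the WT pool, and with the floor at the 60th percentile Nfil3 was no longer measured. The log2 ratio of Nfil3 lay below those of Hlf, Dbp and Tef by 3.17, 2.55 and 2.04. The Nfil3 ratio was 1.9 times the probe set error SD in size. By these probe sets the D-box repressor had a ratio below 0 and the activators had ratios above 0. The members were chosen on this contrast, so nothing is read from these directions.

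Ciart, also known as Chrono, encodes a repressor that binds BMAL1 and is itself a target of the clock. Its probe set gave 734.4 units in the KO-titled pool and 322.2 units in the WT pool, 2.26-fold higher with a log2 ratio of 1.18. A higher ratio was found for 248 genes (2.02%). No second Ciart probe set was there to check it. In the RefSeq annotation Ciart overlaps a noncoding gene, C920021L13Rik, which had 170.6 units in the KO-titled pool and 141.4 units in the WT pool. That log2 ratio was 0.26. The part of this overlap, or of the 3 E-boxes printed above, in the Ciart ratio was not tested.

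Of the bHLH repressors, Bhlhe40 lay near 0 and Bhlhe41 could not be given a ratio. Bhlhe40, which is also induced by neuronal activity and hypoxia, gave 3510.4 units in the KO-titled pool and 3409 units in the WT pool. The log2 ratio was 0.03, with 43.6% of genes higher, and its signals were 54.7 times the floor in the KO-titled pool and 53.1 times the floor in the WT pool. Bhlhe41, a short-sleep gene in humans, was near or under the floor. Its brighter probe set gave 41.1 units in the KO-titled pool and 64.6 units in the WT pool, just above the floor. Its other probe set gave 13.1 units in the KO-titled pool and 30.9 units in the WT pool. No ratio is given for Bhlhe41 at this floor, since its KO-titled signal lay below it. With the floor at the 25th percentile, or with none, its log2 ratio was -0.71 or -0.77.

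**Figure D3:**
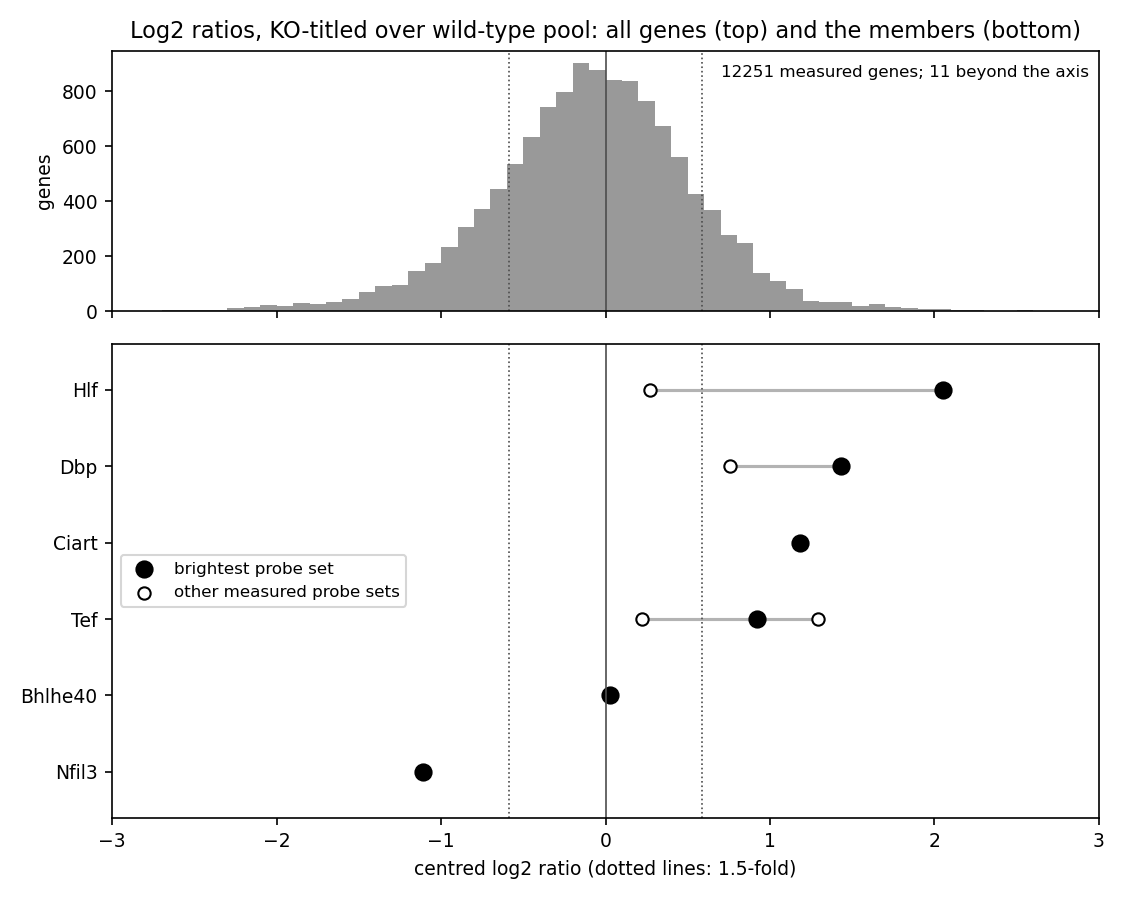
Top, histogram of the centred log2 ratio of KO-titled over WT signal for 12251 measured genes (y axis, number of genes). Bottom, the same ratio for each measured probe set of 6 members, filled for the brightest and open for the others, with dotted lines at 1.5-fold. Hlf, Dbp, Ciart and Tef lie to the right at 2.05, 1.43, 1.18 and 0.92, Bhlhe40 at 0.03 and Nfil3 to the left at -1.11.

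With 2 arrays, likeness of pattern is only closeness of 2 signals. Nearest to Hlf in log2 signal over both arrays were Mindy2, a deubiquitinase gene, Zfp207, which encodes a spindle-assembly protein, and Msi2, an RNA-binding protein gene, at Euclidean distances of 0.17, 0.22 and 0.33. Nearest to Nfil3 were Dnaic1, an axonemal dynein chain gene, Dnph1, a nucleotide hydrolase gene, and Inpp4b, a phosphoinositide phosphatase gene, at 0.01, 0.07 and 0.08. Within a distance of 0.2 there was 1 gene for Hlf and 37 for Nfil3.

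The other clock genes had ratios on both sides of 0. Of 20 other clock genes, 18 had a probe set here and 17 were measured. Of these 17, 4 were at least 1.5-fold higher in the KO-titled pool and 0 lower, beside 12.5% and 18.3% of all measured genes. Their median log2 ratio was 0.26 beside -0.06 over all genes. Csnk1e, a kinase that marks PER proteins for decay, gave 1995 units in the KO-titled pool and 864.1 units in the WT pool, a log2 ratio of 1.19, while its other probe set had 0.48. Per3, a period gene, gave 708.3 units in the KO-titled pool and 334.3 units in the WT pool, a log2 ratio of 1.07, with its 3 probe sets between 1.07 and 1.80. The repressor Cry2 and the kinase Csnk1d had 0.67 and 0.59, the second only just past 1.5-fold and with its lowest probe set at 0.14. Lowest were Arntl at -0.28, its partner Npas2 at -0.23 and the nuclear receptor gene Rorb at -0.13, although other probe sets of Arntl and Rorb reached 0.54 and 3.16. No log2 ratio of this list reached that of Hlf or Dbp by brightest probe sets. Csnk1e lay above Ciart (1.18) and Tef (0.92), and Per3 above Tef. The members were chosen on this contrast, so nothing is read from this order.

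**Figure D4:**
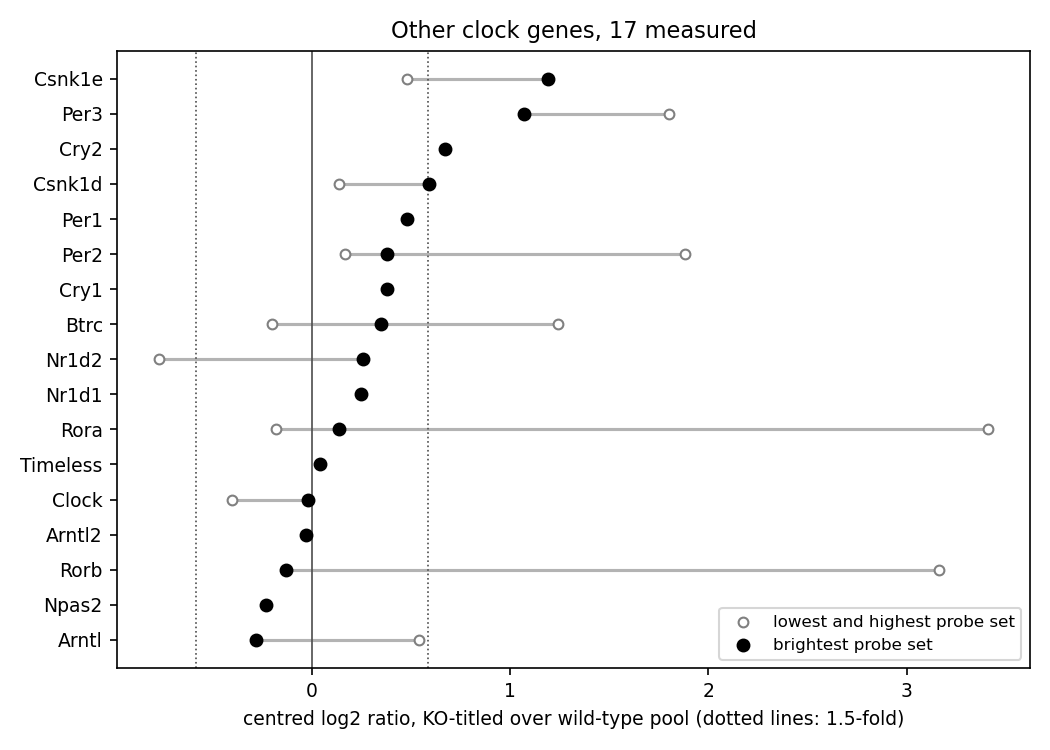
Centred log2 ratio of KO-titled over WT signal for 17 measured clock genes outside the members, with the brightest probe set filled and the lowest and highest probe set of each gene open, dotted lines at 1.5-fold. By brightest probe sets the genes run from -0.28 for Arntl to 1.19 for Csnk1e, and probe sets of Rora and Rorb spread furthest, to 3.41 and 3.16.

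Genes known to peak at a similar time of day to Dbp had positive ratios by their brightest probe sets. All 8 such genes were measured, all 8 had a log2 ratio above 0 and 3 were at least 1.5-fold higher in the KO-titled pool, with a median of 0.44. Over all measured genes 45.8% had a ratio above 0, and 12.5% were 1.5-fold higher. This and the other gene lists were chosen with earlier results of these data known, so nothing is read from such counts. Per3 led at 1.07, followed by Tsc22d3, a glucocorticoid-induced gene, at 0.75 and Usp2, a deubiquitinase gene, at 0.71, whose lowest probe sets had 0.21 and 0.40. Lowest were the Rev-Erb genes Nr1d1 and Nr1d2, at 0.25 and 0.26, with another Nr1d2 probe set at -0.77, and Per2 at 0.38. The 3 Per2 probe sets lay between 0.17 and 1.88. Of 5 genes known to peak at another phase, 4 were measured and 0 passed 1.5-fold in either direction, with a median of -0.13. Cry1 was highest at 0.38, Clock had -0.02, and Npas2 and Arntl were lowest. Of the same-phase genes only Usp2, Wee1 and Tsc22d3 were not among the other clock genes above, and the opposite-phase genes were all among them.

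Genes known as PAR bZIP targets had ratios near or above 0. Of 10, 8 were measured, and 2 of these, Per3 and Usp2, were at least 1.5-fold higher in the KO-titled pool and 0 were lower, with a median of 0.38. Both of these, and Per1, Per2, Cry1 and Nr1d1, were already counted above, so only Pdxk and Alas1 add values, and neither passed 1.5-fold. In the KO-titled pool 12.5% of all measured genes were higher and 18.3% lower by that fold. Pdxk, the pyridoxal kinase gene through which these factors act on brain vitamin B6, had 4563 units in the KO-titled pool and 4179 units in the WT pool. Its log2 ratio was 0.11. Alas1, the first enzyme gene of heme synthesis, was lowest at -0.16.

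Some other gene groups differed between the pools beside the members. Of 12 activity-induced genes, 8 were at least 1.5-fold higher in the KO-titled pool and 0 lower, with a median log2 ratio of 0.93. For comparison, 12.5% of all measured genes were higher and 18.3% lower in the KO-titled pool by that fold. Btg2, an antiproliferative gene, led at 2.23, followed by the neuronal factor Npas4 at 1.61 and Fos at 1.27, while Egr4 was lowest at -0.26. Of 8 microglia markers, 6 were lower and 1 was higher in the KO-titled pool by 1.5-fold or more, with a median log2 ratio of -1.07. The higher one was Cx3cr1, with 343.6 units in the KO-titled pool and 87.2 units in the WT pool, a log2 ratio of 1.97. Summed signals of the 8 were 10677 units in the KO-titled pool and 12604 units in the WT pool. Csf1r, the brightest of them, had 7830 units in the KO-titled pool and 6390 units in the WT pool. Its log2 ratio was 0.28, with its lowest probe set at -0.70. Without this brightest marker the sums were 2847 units in the KO-titled pool and 6214 units in the WT pool. Of 8 astrocyte markers, 4 were lower and 0 higher, with summed signals of 67199 units in the KO-titled pool and 71784 units in the WT pool. In the same direction lay 1 of 8 neuronal and 1 of 6 oligodendrocyte markers, no more than the share over all genes. Among measured markers, 0 of 5 endothelial and 0 of 4 hypothalamic ones passed 1.5-fold either way. The part of these groups, and of the pituitary signal in the WT pool, in the ratios of the clock output factors was not tested. In bulk tissue, fewer cells of a type and less RNA per cell cannot be told apart.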

How the data were processed

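The authors deposited 1 linear intensity per probe set and array, and GCOS, the Affymetrix operating software, is named per the submitters' processing notes. The sources used here name no version of it, no signal algorithm and no detection calls. Both deposited arrays had a mean of 500.0 units after trimming 2% at either end.

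The floor was set at 64.2 units, the 40th percentile over both arrays without their controls, and a probe set at or above it on both arrays counted as measured (23928 did). Log2 ratios, KO-titled over WT, were centred on their median over these, 0.01. Each gene took its brightest measured probe set. Of 45037 probe sets, 34945 had 1 symbol, 932 several and 9160 none, and 34741 took the current RefSeq symbol. Members and lists were chosen with earlier results of these data known. Named genes were all members, up to 3 genes at either end of each list, all other clock genes past 1.5-fold, and the 3 nearest in signal to the highest and lowest member. With 1 array a group, precision is limited by the number of arrays. Alternatives covered the floor, scaling and choice of probe set. The calculations were tested on simulated data. Loess came from statsmodels 0.14.6, figures from matplotlib 3.10.9, and the rest from pandas 2.3.3 and numpy 2.4.6 under Python 3.11.15.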

Additional observations from a re-analysis of the deposited data

How the results depend on the processing

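Values were recomputed with a floor at the 25th or 60th percentile or none, without centring, with quantile normalization or loess, and with the median, the second brightest or only unsuffixed probe sets. Of 104 recomputed values, 88 stayed within a set limit, 16 moved further and 0 of the called ratios changed sign. The limit was the probe set error for the ratio of 1 gene, a narrower one for medians over genes, and 1.5 times for counts. By second brightest probe sets, Dbp had a log2 ratio of 0.76, Hlf 0.27 and Tef 0.22, so 1 of 3 members was higher and 0 lower, with a median of 0.27. Without suffixed probe sets Dbp had 0.76, and by the median of probe sets Hlf had 1.16. Members at least 1.5-fold lower numbered 2 with the floor at the 25th percentile and 2 with none, since Bhlhe41 then entered at -0.71 and -0.77, and 0 at the 60th percentile, where Nfil3 was no longer measured. Without a floor the median of the members was 0.82 and 2 other clock genes were higher. The median of the other clock genes was 0.41 with quantile normalization and 0.46 by second brightest probe sets, by which 1 was lower; the cause was not tested. The ratio of Bhlhe40 ran from -0.07 without a floor to 0.22 with quantile normalization. No paired analysis was possible because each group holds 1 array, and for the same reason no replicate could be left out.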

Other observations

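A few relatives of the members by protein family passed 1.5-fold in either direction, in numbers near the shares over all measured genes. Of 12 measured bZIP genes outside the clock, 1 was at least 1.5-fold higher in the KO-titled pool and 2 were lower, with a median log2 ratio of -0.34 and 3 of 12 above 0. Over all measured genes 12.5% were higher and 18.3% lower by that fold. Cebpg, which pairs with other C/EBP proteins, gave 1372 units in the KO-titled pool and 731 units in the WT pool, a log2 ratio of 0.90 with 3 probe sets between 0.83 and 0.97. Ddit3, a stress-induced factor also called CHOP, gave 356.5 units in the KO-titled pool and 776.1 units in the WT pool, a log2 ratio of -1.13. Cebpb, an inflammatory regulator, had -0.79, with its other probe set at 0.02.

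Of 10 measured bHLH repressor and Id genes, 2 were higher and 2 lower in the KO-titled pool by 1.5-fold or more, with a median of 0.02. The shares over all measured genes were 12.5% and 18.3%, so nothing is read from these counts. Heyl and Hes5, both targets of Notch signalling, had log2 ratios of 0.85 and 0.74, and the second Hes5 probe set had 0.99. Id3, an inhibitor of bHLH factors, had -0.72, and Hes6, which opposes Hes1, had -0.60.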
